A study of Mus musculus with 7 samples.

Results

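The genes described here are 7 organic anion transporter genes of the mouse retina, Slc22a8 of the SLC22 family and Slco4a1, Slco1a4, Slco1c1, Slco2b1, Slco3a1 and Slco5a1 of the SLCO family, out of 54532 genes in the deposited count table. They were chosen by gene name, with earlier results from these same libraries known: Slc22a8 stood among the genes of smallest p on the higher side and Slco4a1 among those on the lower side. All comparisons of the 7 genes between the groups are therefore a description. Each of the 7 names has 1 row in the table, and all 7 passed the filter on low counts. The study infused mice with angiotensin II (Ang II, a peptide hormone that raises blood pressure) or with saline and sequenced poly-A selected RNA of the retina, labelled day 28. Ang II was given to the mice of 4 libraries and saline to those of 3. The series text gives all mice as ApoE-/-, a knockout of apolipoprotein E that raises plasma cholesterol, whereas the sample labels give the genotype of all 7 as WT. Reads of Apoe were found in all 7, with 253 to 406 counts under Ang II and 150 to 304 under saline. These counts do not settle which genotype is right, and the genotype was not tested. Below, values of single libraries follow the order of the replicate numbers, 1 to 4 for Ang II and 1 to 3 for saline. Dose, age, sex and the number of animals behind a library are not given in the sources used here.

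Organic anion transporters move large, negatively charged molecules such as conjugated steroids, bile acids, thyroid hormones, prostaglandins and many drugs across membranes. SLCO genes encode the organic anion transporting polypeptides (OATP), and Slc22a8 encodes organic anion transporter 3 (OAT3), which exchanges an organic anion for an intracellular dicarboxylate. In the eye such carriers matter at the inner blood-retina barrier, formed by retinal capillary endothelium, and at the outer barrier, formed by the retinal pigment epithelium. In brain and retinal capillaries OAT3 and OATP1A4, the product of Slco1a4, are known for carrying organic anions out of neural tissue, and OATP1C1, the product of Slco1c1, for thyroxine uptake.

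The promoter windows of Slc22a8, Slco1a4 and Slco1c1, the carriers best known from barrier endothelium, are shown with that of Slco4a1, the most abundant of the 7 genes, with a fold change opposite in sign to those 3, so that their base composition can be compared. Each is 250 bases before to 50 after a start site, from RefSeq on GRCm38.p6 (the assembly behind mm10), 5′ to 3′ on the strand of the gene. Capitals mark exact matches on either strand to 5 promoter motifs, and variants of the motifs were not searched. The TATA box was searched as TATAAA, and the CCAAT box by the letters of its name. The GC box was searched as GGGCGG, which Sp1-type factors bind. The E-box, bound by basic helix-loop-helix factors, was searched as CACGTG. The cyclic AMP response element was searched as TGACGTCA.
Slc22a8: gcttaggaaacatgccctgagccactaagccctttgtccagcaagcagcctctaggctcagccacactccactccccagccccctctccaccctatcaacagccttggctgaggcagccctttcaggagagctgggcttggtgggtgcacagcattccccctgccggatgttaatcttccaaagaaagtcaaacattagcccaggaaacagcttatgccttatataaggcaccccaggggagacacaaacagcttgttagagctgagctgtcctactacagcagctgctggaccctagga
Slco1a4: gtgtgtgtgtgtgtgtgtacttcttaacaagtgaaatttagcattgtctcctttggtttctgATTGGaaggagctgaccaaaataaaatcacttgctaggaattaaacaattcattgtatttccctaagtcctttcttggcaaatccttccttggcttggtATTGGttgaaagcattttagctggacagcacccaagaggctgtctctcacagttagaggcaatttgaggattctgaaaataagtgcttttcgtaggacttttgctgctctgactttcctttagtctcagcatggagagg
Slco1c1: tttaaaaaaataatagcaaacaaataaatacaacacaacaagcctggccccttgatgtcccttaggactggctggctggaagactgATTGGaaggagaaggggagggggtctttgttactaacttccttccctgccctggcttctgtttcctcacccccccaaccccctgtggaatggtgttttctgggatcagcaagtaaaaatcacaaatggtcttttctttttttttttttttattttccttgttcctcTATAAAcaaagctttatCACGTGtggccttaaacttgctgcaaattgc
Slco4a1: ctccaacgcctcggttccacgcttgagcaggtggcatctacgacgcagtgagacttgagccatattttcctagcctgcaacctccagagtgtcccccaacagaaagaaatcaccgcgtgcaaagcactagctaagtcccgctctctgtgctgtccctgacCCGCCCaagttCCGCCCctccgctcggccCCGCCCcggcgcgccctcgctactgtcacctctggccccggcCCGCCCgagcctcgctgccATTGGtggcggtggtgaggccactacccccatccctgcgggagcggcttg

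The window of Slc22a8 is chr19:8592932-8593231 (plus strand), that of Slco1a4 chr6:141856171-141856470 (minus strand), that of Slco1c1 chr6:141524104-141524403 (plus strand) and that of Slco4a1 chr2:180455995-180456294 (plus strand). The Slco4a1 window shown differs in composition from the other 3. It has 24 CpG dinucleotides and a GC content of 65.3%, where the median of 32851 RefSeq windows of this length is 7 CpG and 52.7%. The Slc22a8, Slco1a4 and Slco1c1 windows each have 1 CpG, with GC contents of 55.0%, 40.7% and 42.0%. Slco2b1, with a fitted log2 fold change of 0.26, has 3 windows that are not shown. They have 5, 2 and 4 CpG and GC contents of 57.0%, 52.3% and 53.0%. Whether base composition goes with the direction of change was not tested. Slco4a1 holds 4 GC boxes, at positions -90, -79, -61 and -19 from the start site, and a CCAAT box at position 1, where positions name the leftmost base of a match and position 1 is the start site. Slco1c1 holds a match to TATAAA at position 3, past the start site, an E-box at position 20 and a CCAAT box at position -164. Slco1a4 holds CCAAT boxes at positions -188 and -89, and Slc22a8 holds an exact match to 0 of the 5 motifs. The Slc22a8 window does hold the letters TATATAA before the start site, a near match to TATAAA that the exact search does not count. Of all windows of this length, 13.6% hold the TATA box, 37.4% the CCAAT box, 35.7% the GC box, 7.15% the E-box and 1.79% the cyclic AMP response element. RefSeq lists a second Slco4a1 window, at a start site 4733 bases from the start of the gene in the deposited table, which has 4 CpG, a GC content of 55.7% and a match to 0 of the 5 motifs. The start site of the Slc22a8 window lies 1928 bases from the start of the gene in the deposited table, and the other start sites of the windows shown lie within 21 bases of it. RefSeq windows were matched by symbol for 5 of the 7 genes, and Slco3a1 and Slco5a1 were not among them.

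Levels were first set in order per gene length, as FPKM (the CPM, a read count relative to the scaled library size, divided by the deposited gene length in kilobases). Slco4a1, which encodes OATP4A1, a widely expressed carrier of thyroid hormones and prostaglandins, was far the most abundant, with a mean of 36.6 ± 8.45 FPKM (SD, n = 7) and a range of 30.1 to 52.7. It was the highest of the 7 genes in every library, 10.5 times the mean of the next. Slco1a4 followed at 3.47 ± 0.767 FPKM (SD, n = 7), Slc22a8 at 2.35 ± 1.05, Slco1c1 at 2.27 ± 0.531 and Slco3a1 at 2.19 ± 0.401. Slco5a1 was at 1.68 ± 0.354 FPKM and Slco2b1 at 1.06 ± 0.236. Below Slco4a1, neighbours in this order had overlapping ranges. Slco1a4 exceeded Slc22a8 in 6 of 7 libraries, whereas Slc22a8 exceeded Slco1c1 in 3 of 7, so these 2 neighbours were not ordered beyond their spread. Slc22a8 took place 2 to 4 in the Ang II libraries and place 6 or 7 in the saline libraries, the widest movement of the 7. On the CPM scale, which ignores length, Slc22a8 would take place 6, and Slco5a1, whose deposited length of 13137 bases is the greatest of the 7, place 3.

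**Figure D1:**
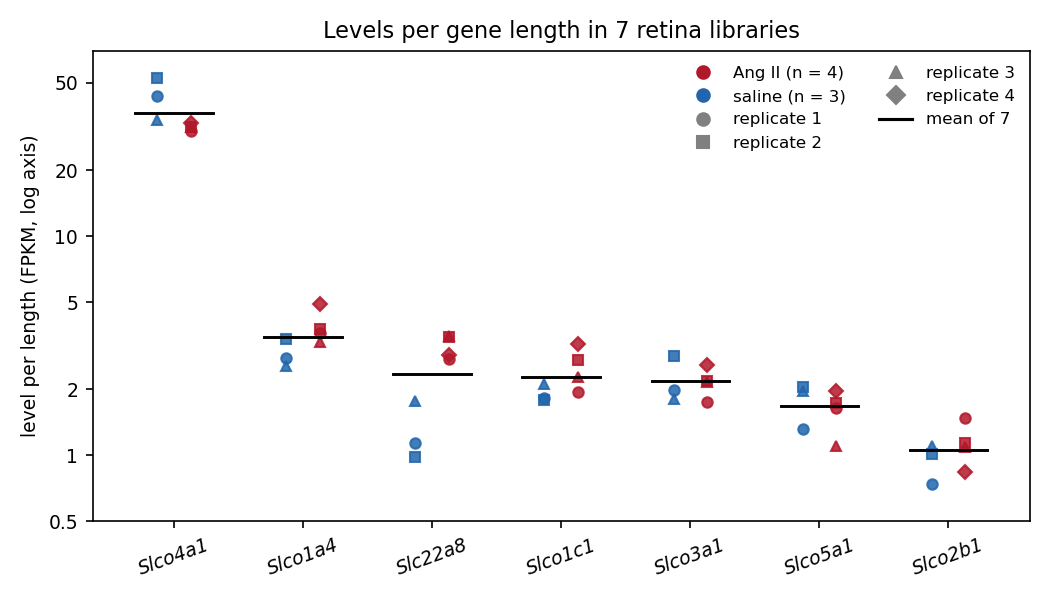
Level of each transporter gene per kilobase of gene length (FPKM, log axis) in the 4 Ang II libraries (red) and the 3 saline libraries (blue), with marker shapes for replicate numbers and a black line at the mean of 7. Slco4a1 lies between 30.1 and 52.7 FPKM, and the other 6 genes lie between 0.737 and 4.89.

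Slc22a8 (ENSMUSG00000063796, chromosome 19, 8591254 to 8611834, plus strand, mm10) had 168, 197, 193 and 165 counts in the Ang II libraries and 64, 49 and 101 in the saline libraries. Relative to the scaled library size these are 9.51, 12.02, 12.2 and 9.94 CPM under Ang II and 3.96, 3.43 and 6.16 CPM under saline. Every Ang II library lay above every saline library, and saline replicate 3 was the saline library nearest to them. The group means were 10.9 ± 1.38 and 4.52 ± 1.45 CPM (SD, n = 4 and 3). The fitted log2 fold change was 1.27 ± 0.22 (SE), or 2.41-fold higher under Ang II.

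Slco4a1 (ENSMUSG00000038963, chromosome 2, 180456245 to 180474867, plus strand) went the other way. Its levels were 144.6, 150.8, 150.9 and 157.4 CPM under Ang II and 209.5, 253.1 and 161.7 CPM under saline. The 4 Ang II libraries were close together, with a coefficient of variation of 3.45%, while the saline libraries spread by 22.0%. The groups did not overlap, but saline replicate 3 at 161.7 CPM came near Ang II replicate 4 at 157.4 CPM. The group means were 150.9 ± 5.21 and 208.1 ± 45.7 CPM (SD, n = 4 and 3). The fitted log2 fold change was -0.46 ± 0.12 (SE), or 1.38-fold higher under saline.

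Slco1a4 (ENSMUSG00000030237, chromosome 6, 141805440 to 141856199, minus strand) and Slco1c1 (ENSMUSG00000030235, chromosome 6, 141524368 to 141570177, plus strand) lie in the same SLCO1 cluster, with Slco1b2 between them. Slco1a4 was at 23.1, 24.3, 21.1 and 31.4 CPM under Ang II and at 17.8, 21.7 and 16.4 CPM under saline. Saline replicate 2 lay just above the lowest Ang II library, replicate 3, so the groups overlapped in 1 pair of libraries. The log2 fold change was 0.43 ± 0.15 (SE), from means of 25.0 ± 4.48 and 18.6 ± 2.77 CPM (SD, n = 4 and 3). Slco1c1 was at 10.1, 14.2, 11.7 and 16.8 CPM under Ang II and at 9.46, 9.31 and 10.9 CPM under saline. Ang II replicate 1 lay among the saline libraries, and Ang II replicate 4 was the highest library for both genes. The log2 fold change of Slco1c1 was 0.41 ± 0.18 (SE), from means of 13.2 ± 2.91 and 9.90 ± 0.891 CPM (SD, n = 4 and 3).

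The other 3 genes overlapped widely between the groups. Slco2b1 (ENSMUSG00000030737, chromosome 7, 99657804 to 99711340, minus strand), whose product OATP2B1 carries steroid sulfates, was at 8.78, 6.77, 6.50 and 5.00 CPM under Ang II and at 4.39, 6.02 and 6.59 CPM under saline. Its log2 fold change was 0.26 ± 0.23 (SE), and Ang II replicate 1 alone lay well above the rest. Slco3a1 (ENSMUSG00000025790, chromosome 7, 74275419 to 74554780, minus strand), whose product OATP3A1 carries prostaglandins and thyroxine, was at 14.9, 18.5, 18.4 and 21.9 CPM under Ang II and at 16.8, 24.2 and 15.4 CPM under saline. Its log2 fold change was -0.03 ± 0.17 (SE), with saline replicate 2 the highest of the 7 libraries. Slco5a1 (ENSMUSG00000025938, chromosome 1, 12866549 to 12992650, minus strand), a family member whose substrates are poorly known, was at 21.7, 22.7, 14.5 and 25.7 CPM under Ang II and at 17.4, 27.0 and 25.7 CPM under saline. Its log2 fold change was -0.14 ± 0.19 (SE), and both the Ang II and the saline group held 1 low library, replicate 3 and replicate 1.

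**Figure D2:**
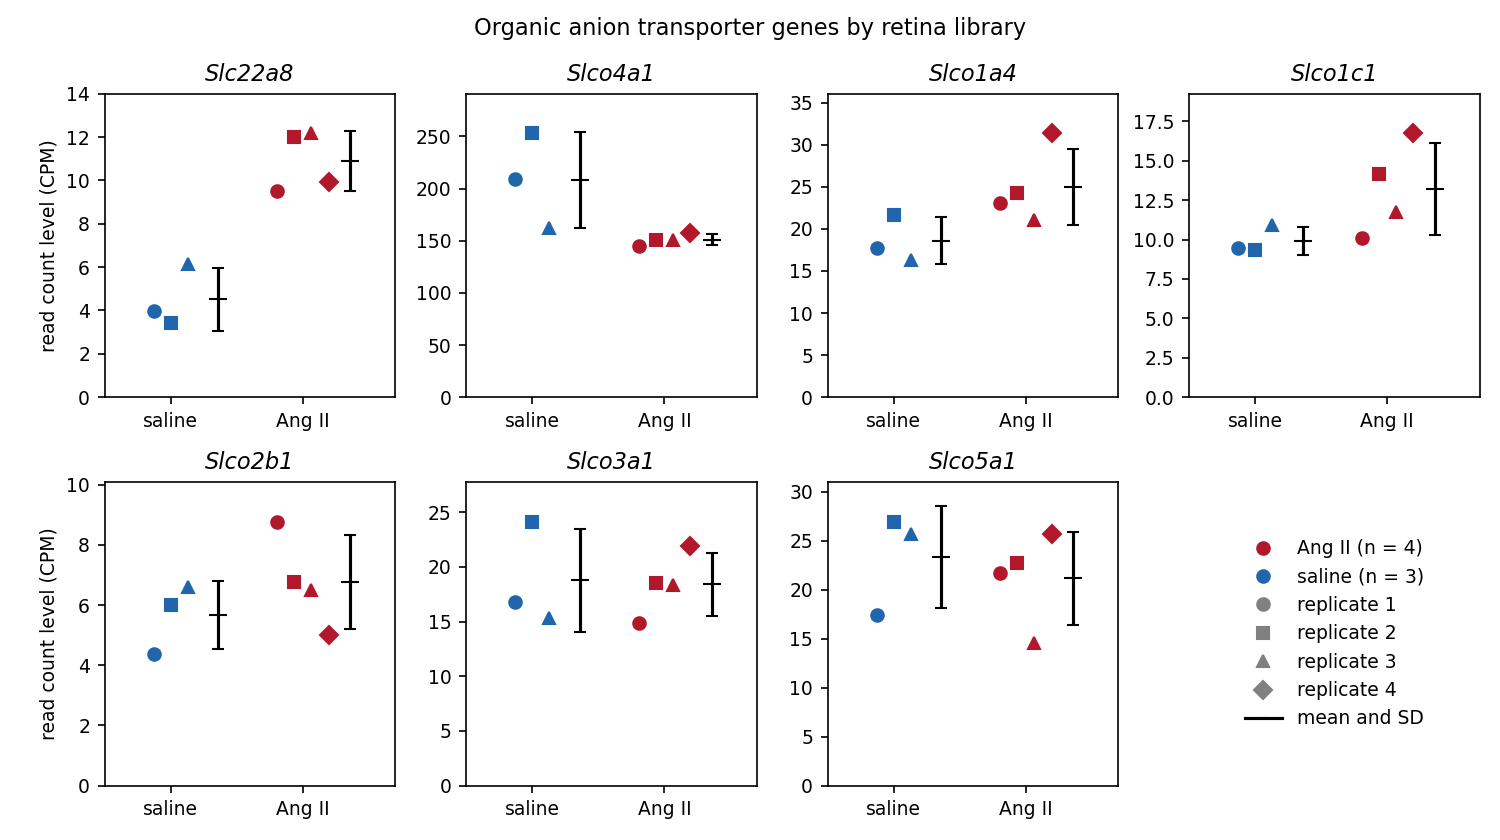
Level in CPM of each transporter gene in the 3 saline (blue) and 4 Ang II (red) libraries, with marker shapes for replicate numbers and a bar for the mean and SD of each group. The groups are apart for Slc22a8 (at most 6.16 in saline, at least 9.51 in Ang II) and Slco4a1 (at least 161.7 in saline, at most 157.4 in Ang II) and overlap for the other 5 genes.

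In the edgeR quasi-likelihood fit over all genes, 0 of the 7 transporters passed an adjusted p of 0.05, as did 0 of all 17078 genes tested (0%). Unadjusted p-values under 0.05 were found for 789 of these genes. Groups that did not overlap, with Ang II higher, were found for 1 of the 7 (Slc22a8) and for 3.18% of all genes tested. Groups that did not overlap, with Ang II lower, were found for 1 of the 7 (Slco4a1) and for 2.73% of all genes. The median log2 fold change was 0.26 over the 7 and -0.0048 over all genes tested, with 4 of the 7 above 0 and 48.9% of all genes. These counts rest on the contrast with which the 7 genes were chosen.

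The calls depended on saline replicate 3 and on the tool. Slc22a8 and Slco4a1 were chosen with this contrast known, and saline replicate 3 was for both the saline library nearest to Ang II. Their calls are therefore a description. Without that library, edgeR called Slc22a8, at a log2 fold change of 1.57 ± 0.23 (SE), among 0.587% of genes called higher. It also called Slco4a1, at -0.61 ± 0.10 (SE), among 0.0798% of genes called lower. DESeq2 on all 7 libraries called 0.183% of genes higher, Slc22a8 among them, and 0.0296% lower, Slco4a1 not among them. limma-voom with quality weights called 0.574% higher and 0.0937% lower, with Slc22a8 in the first and Slco4a1 in the second. For Slco4a1, leaving out saline replicate 2, its highest library, gave -0.30, and for Slc22a8 the values without each library in turn ran from 1.11 to 1.57.

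The cell types of both barriers were present in every library. The 12 capillary endothelial markers summed to between 518.7 and 627.2 CPM under Ang II and between 573.7 and 585.8 CPM under saline, with 6 of 12 above 0 in log2 fold change and 0 at 0 counts. The glucose carrier gene Slc2a1 and the VEGF receptor genes Flt1 and Kdr made up 86.6% to 90.5% of this sum. Slc2a1 alone had means of 259.8 CPM under Ang II and 260.4 CPM under saline. How much of the RNA of these 3 genes came from endothelium was not tested, so the sum may not measure endothelium alone. The other 9 summed to 59.6 to 74.2 CPM under Ang II and 55.5 to 71.5 CPM under saline. Pecam1, an adhesion molecule of endothelium, was at 12.1 to 16.6 CPM under Ang II and 12.5 to 17.3 under saline, and the tight junction gene Cldn5 at 6.59 to 10.5 and 7.75 to 9.73. The 8 pericyte and smooth muscle markers summed to 135.1 to 145.0 CPM and 130.7 to 141.6 CPM, with the pericyte receptor gene Pdgfrb at 20.9 to 30.2 and 21.4 to 23.8 CPM. The 15 pigment epithelium markers, by contrast, all had a log2 fold change above 0, with a median of 1.16 and 0 called, as over all genes tested. Without Rlbp1, which Müller glia also express, the remaining 14 summed to 1432, 1470, 1985 and 1143 CPM under Ang II and to 255.2, 277.0 and 1042 CPM under saline. Saline replicate 3, the saline library with the most Slc22a8 and the least Slco4a1, thus also came near the lowest Ang II library in pigment epithelium level. Of the 14 markers, Rgr (means of 537.1 CPM under Ang II and 172.4 under saline) and Ttr (508.0 and 163.5) were the most abundant. A sum without these markers was not made. The retinoid isomerase gene Rpe65 was at 106.9 to 204.1 CPM under Ang II and 19.7 to 91.8 CPM under saline. Less RNA per cell and fewer cells of a type cannot be told apart in such bulk libraries.

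Set against the endothelial sum, Slc22a8 was at 1.83, 2.05, 2.19 and 1.59 CPM per 100 CPM of endothelial markers in Ang II and at 0.690, 0.588 and 1.05 in saline, so the groups stayed apart on that scale. Slco1a4 was at 4.45, 4.13, 3.80 and 5.00 in Ang II and at 3.09, 3.72 and 2.79 in saline, and Slco1c1 at 1.94, 2.41, 2.12 and 2.67 and at 1.65, 1.60 and 1.86. Both genes, which overlapped in CPM, did not overlap relative to the endothelial sum. Groups apart on that scale, with Ang II higher, were found for 3 of the 7 transporters and for 2.86% of all genes tested, and with Ang II lower for 0 of the 7 and 1.38%. Without Slc2a1, Flt1 and Kdr, a choice made after the data were seen, Slc22a8 alone of the 7 stayed apart, at 13.4 to 19.3 CPM per 100 CPM of the other 9 markers under Ang II and 6.12 to 8.62 under saline. Of all genes tested, 1.58% were apart on that scale with Ang II higher and 2.42% with Ang II lower. On that scale Slco1a4 was at 28.4 to 42.3 in Ang II and 22.9 to 39.1 in saline and Slco1c1 at 15.8 to 22.7 and 14.6 to 16.8, so both overlapped and their separation rested on the 3 abundant markers. Relative to all 12 markers, Slco4a1 was at 25.1 to 27.9 in Ang II and at 36.5, 43.4 and 27.6 in saline, which overlap.

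Set against the 14 pigment epithelium markers, Slc22a8 was at 0.664, 0.818, 0.614 and 0.870 CPM per 100 CPM in Ang II and at 1.55, 1.24 and 0.591 in saline, which overlap. Saline replicates 1 and 2 had more Slc22a8 per unit of pigment epithelium than any Ang II library, the reverse of the order in CPM. With Rlbp1 in the sum the groups also overlapped but without that reversal, at 0.508 to 0.625 in Ang II and 0.403 to 0.590 in saline. Relative to the 14 markers Slco4a1, Slco2b1 and Slco5a1 were apart with Ang II lower, as were 62.9% of all genes tested, and 0 of the 7 were apart with Ang II higher, against 0.0468% of all genes. With Rlbp1 in the sum, Slco4a1 and Slco5a1 were apart with Ang II lower, as were 52.5% of all genes, and 0 of the 7 with Ang II higher, against 0.158%. The sum of the 14 was itself higher in each Ang II library than in any saline library. With the log2 pigment epithelium level of the 14 markers as a covariate, an alternative added after the data were seen, the log2 fold change of Slc22a8 was 0.64 ± 0.32 (SE) and that of Slco4a1 -0.02 ± 0.16. In the same fit Slco1a4 was at 0.78 ± 0.24, Slco1c1 at 0.36 ± 0.31, Slco2b1 at -0.10 ± 0.39, Slco3a1 at 0.36 ± 0.28 and Slco5a1 at -0.15 ± 0.33. The covariate itself differs between the groups, and the part of pigment epithelium RNA in these differences was not tested in any other way. The covariate moved the values of Slc22a8 and Slco4a1 toward 0 and that of Slco1a4 away from it, and 0 genes of the table were called with it.

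**Figure D3:**
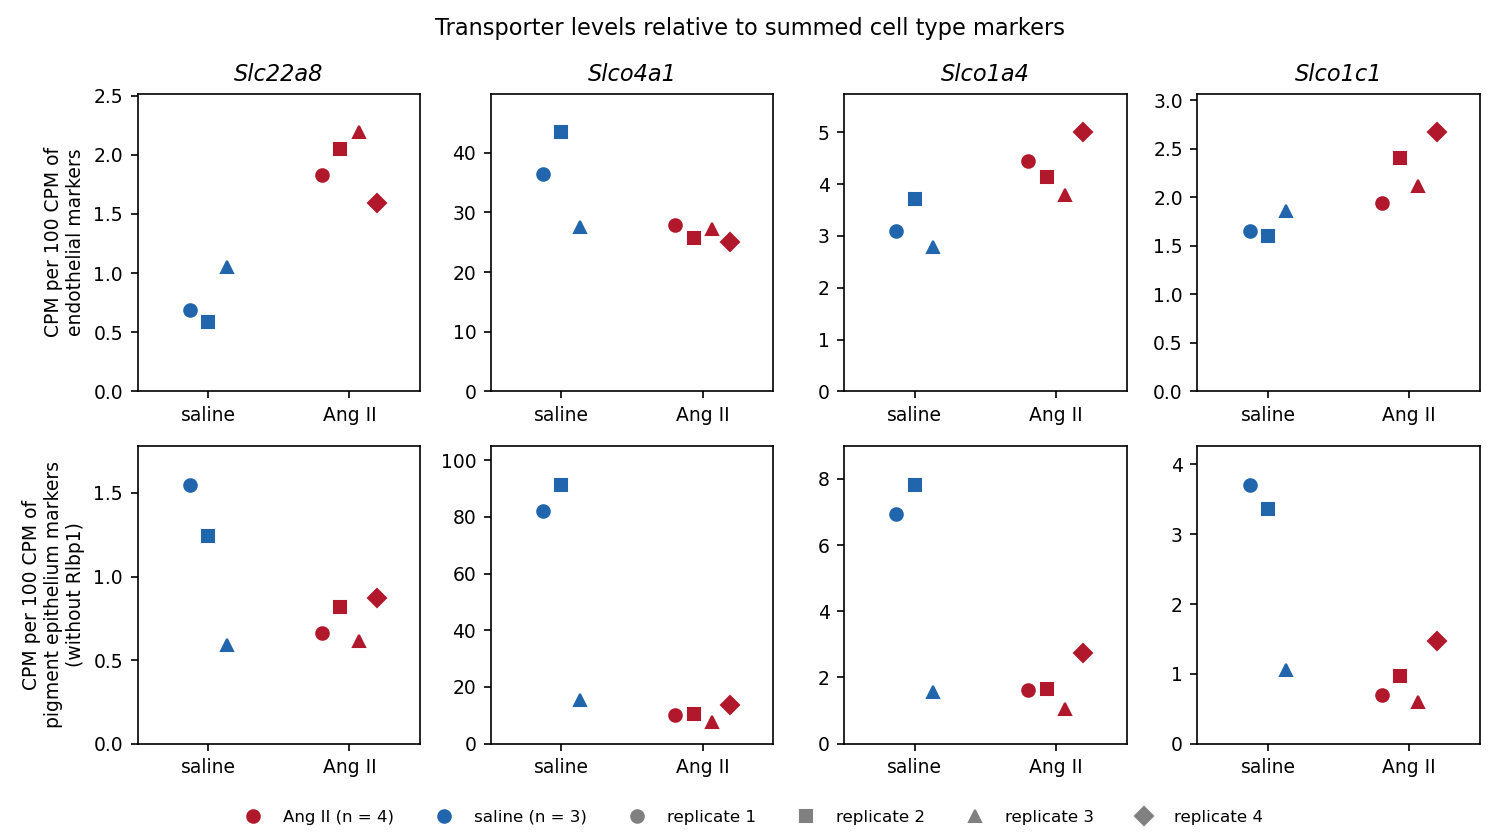
Levels of 4 transporter genes in each library, in CPM per 100 CPM of the summed endothelial markers (top) or of the summed pigment epithelium markers without Rlbp1 (bottom), saline in blue and Ang II in red. Slc2a1, Flt1 and Kdr made up 86.6% to 90.5% of the endothelial sum. Slc22a8 separates the groups in the top row (at most 1.05 in saline, at least 1.59 in Ang II) and overlaps in the bottom row (0.591 to 1.55 in saline, 0.614 to 0.870 in Ang II).

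**Figure D4:**
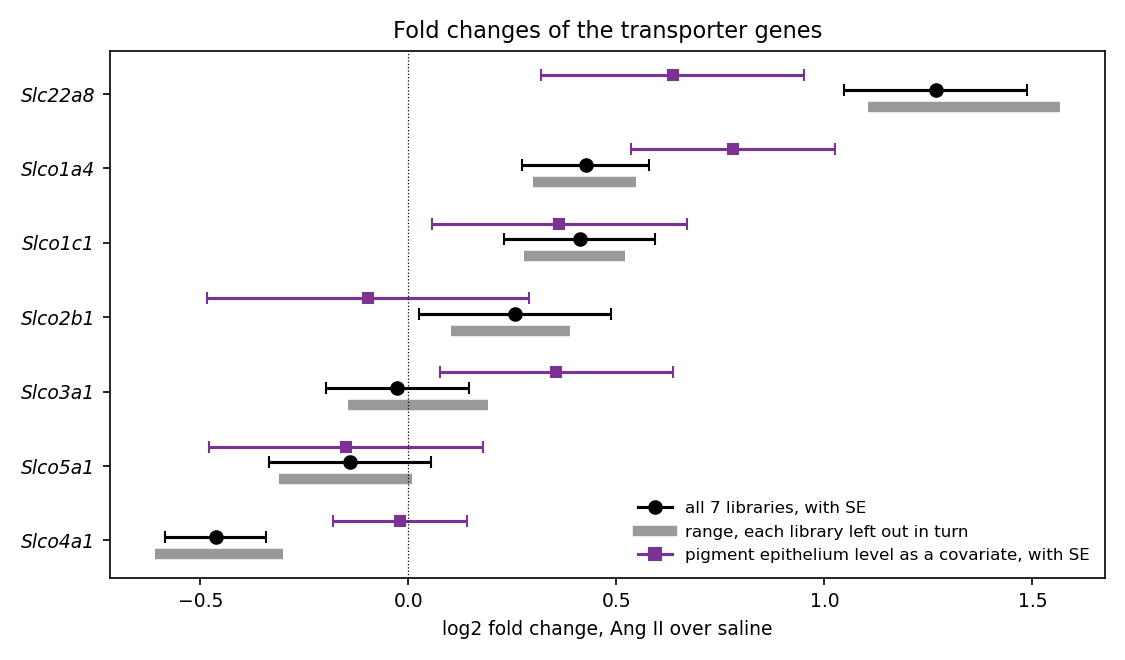
Log2 fold change (Ang II over saline) of each transporter gene with its SE in all 7 libraries (black), the range with each library left out in turn (grey bars) and the value with the pigment epithelium level as a covariate, with its SE (purple). Slc22a8 stays at 1.11 to 1.57 with any 1 library left out and is at 0.64 with the covariate, while Slco4a1 is at -0.61 to -0.30 and at -0.02.

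The genes whose levels followed each transporter most closely were found by the root mean square distance of log2 CPM, centred on the mean of the 7 libraries. The search took in 11412 genes with a mean of at least 5 CPM. Genes with provisional names (Gm numbers, Rik names, clone names or digits only) were left out. For Slc22a8 the nearest were the bicarbonate transporter gene Slc4a5 (distance 0.177), the metalloproteinase inhibitor gene Timp3 (0.181) and the fatty acid elongase gene Elovl7 (0.184). The median over the genes compared was 0.707. Slc4a5 was at 69.1 to 94.4 CPM under Ang II and 31.6 to 58.8 CPM under saline, Timp3 at 158.5 to 227.1 and 64.9 to 143.3, and Elovl7 at 8.13 to 12.4 and 3.22 to 7.32. Like Slc22a8, all 3 had no overlap between the groups, as had 3.18% of all genes tested with Ang II higher. Being picked for a profile like that of Slc22a8 favours this. For Slco4a1 the nearest were the centromere protein gene Cenpx (0.0953), the inward rectifier potassium channel gene Kcnj2 (0.0991) and the lipid droplet gene Hilpda (0.106), with a median of 0.306. All 3 were highest in saline replicate 2, the library highest in Slco4a1, which a choice by distance also favours.

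The nearest genes of the remaining transporters lay at distances of 0.0623 to 0.136. Slco1c1 was nearest to Tmem267 (0.0883), to Tek (0.0900), the angiopoietin receptor gene of endothelium, and to the tubulin gene Tuba1c (0.122). Slco1a4 was nearest to the cadherin gene Cdh6 (0.119), the protocadherin gene Pcdhgc5 (0.123) and Vwc2l (0.136). Slco3a1 was nearest to the ubiquitin ligase gene Hecw1 (0.0822), Zfp277 (0.0937) and the glutamate receptor gene Grin2b (0.0980). Slco5a1 was nearest to Disp1 (0.0623), Pnma2 (0.109) and Sephs2 (0.112), and Slco2b1 to the pseudogene Rpl9-ps6 (0.0944), Polr3f (0.121) and Arhgef33 (0.122). Distances over 7 libraries of 2 groups also take in the group difference and whatever the libraries share.

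**Figure D5:**
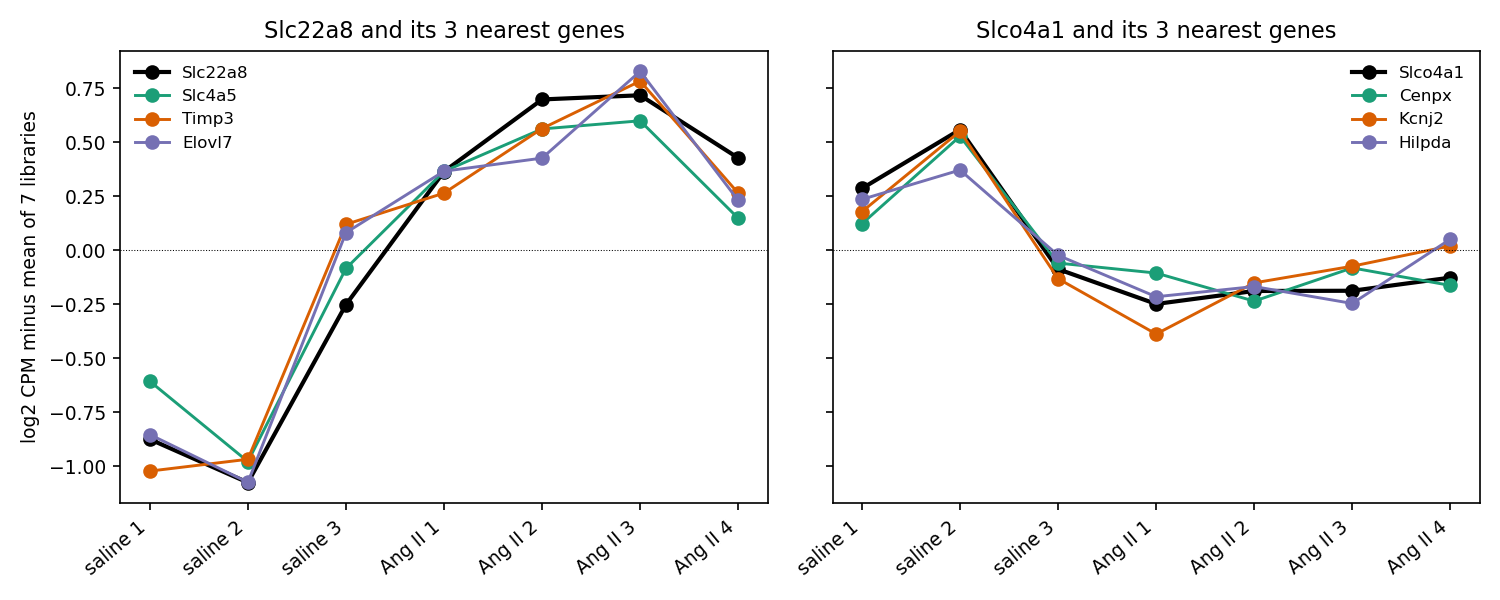
Log2 CPM minus the mean of the 7 libraries for Slc22a8 (left) and Slco4a1 (right), in black. The other lines are the 3 genes, of the 11412 compared, at the smallest root mean square distance from each. Libraries have no order along the axis and lines only join a gene's points. Slc4a5, Timp3 and Elovl7 lie low in saline replicates 1 and 2 with Slc22a8, at distances of 0.177 to 0.184.

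The other SLCO genes found by symbol had few counts. Of 11 other listed SLCO genes 9 have a row under their symbol. Slco1a7 and Slco1a8 have none, and rows under other names were not searched. Of the 9, 1 passed the filter, Slco2a1, the prostaglandin uptake carrier gene. Slco2a1 was at means of 0.386 ± 0.211 CPM under Ang II and 0.712 ± 0.208 CPM under saline (SD, n = 4 and 3). Its log2 fold change was -0.85 ± 0.55 (SE) with an edgeR adjusted p of 0.982. The genes of chromosome 6 whose symbol begins with Slco number 6 in the table and span 141524368 to 142322981, the SLCO1 cluster. Summed over the 7 libraries, Slco1a4 had 2526 counts and Slco1c1 1339, against 63 for Slco1a5, 6 for Slco1b2, the main hepatic SLCO1 gene, 2 for Slco1a6 and 0 for Slco1a1. The counts of Slco1a5 were 3 to 28 under Ang II and 0 to 6 under saline. The kidney gene Slco4c1 had 3 to 9 counts per library, and Slco6b1, Slco6c1 and Slco6d1 had 0 in all.

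Little of the transcript sequence of the 7 genes is shared with other genes. Of the 50-base stretches in the annotated transcripts of Slco1a4, 1.61% also occur in another gene, mainly Slco1a5 and Slco1a1. That share was 0.457% for Slc22a8 and 0% for Slco4a1, Slco1c1, Slco3a1 and Slco5a1. Slco2b1 shares 5.89%, mainly with the antisense gene Gm15635, which had 12 to 21 counts per library, and since the library preparation marks no strand, reads from the stretches these 2 genes share cannot be told apart.

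Other well-known organic anion carriers of the SLC22 family had few counts. The kidney paralog Slc22a6, which encodes OAT1, had 0 to 1 counts per library, Slc22a7 (OAT2) had 1 to 7 and Slc22a12, the urate exchanger gene, 0 to 8. Of 23 other SLC22 genes 9 were tested. edgeR called 0 of them in either direction, as of all genes tested. Among the 9, 7 lay above 0, against 48.9% of all genes, with a median log2 fold change of 0.17. The 4 of smallest p were the carnitine transporter gene Slc22a5 (0.38 ± 0.15 SE, means of 15.4 ± 1.68 and 11.8 ± 1.57 CPM, SD, n = 4 and 3), Slc22a18 (1.48 ± 0.62), the carnitine and ergothioneine transporter gene Slc22a4 (0.39 ± 0.43) and Slc22a29 (0.24 ± 0.35). Their edgeR adjusted p-values were 0.982 for the first 3 and 0.983 for the last. Slc22a18 had low counts, 11 to 31 per library under Ang II and 1 to 14 under saline.

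Efflux pumps that share substrates with these carriers did not pass either, but neither did any of the 17078 genes tested. Of all those genes 48.9% lay above 0. Of 13 ABC transporter genes 10 were tested, with 0 called in either direction, 6 above 0 and a median of 0.07. Abcb1b, a P-glycoprotein gene, had a log2 fold change of 0.81 ± 0.36 (SE), from means of 2.09 ± 0.594 and 1.18 ± 0.241 CPM (SD, n = 4 and 3). Abcc5 was at -0.13 ± 0.11, Abcc4 (MRP4, an organic anion exporter) at 0.19 ± 0.16 and Abcc1 (MRP1) at 0.11 ± 0.09, all 4 with an edgeR adjusted p of 0.982. The list of monocarboxylate and dicarboxylate carriers, the ions OAT3 exchanges among them, held 12 genes, with the peptide carrier gene Slc15a2 also included. Of these 12 genes 11 were tested, with 0 called in either direction, 7 above 0 and a median of 0.02. Slc16a12, a creatine carrier gene, was at 2.22 ± 0.61 (edgeR adjusted p = 0.875). Its counts were low, at 10 to 39 per library under Ang II and 1 to 6 under saline. The sodium-dicarboxylate cotransporter gene Slc13a3 was at 1.51 ± 0.51 and Slc16a8, the lactate carrier gene of pigment epithelium, at 1.55 ± 0.68. Slc16a7 was at 0.22 ± 0.16 (edgeR adjusted p = 0.982 for Slc13a3, Slc16a8 and Slc16a7).

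Genes that handle the hormones carried by OATPs were examined next. The counts below stand beside 0 of all genes tested called and 48.9% of all genes above 0. Of 13 thyroid hormone genes 11 were tested, with 0 called in either direction, 7 above 0 and a median of 0.03. Ttr, which encodes the thyroxine carrier transthyretin and is also a pigment epithelium marker, was at 374.9 to 640.0 CPM under Ang II and 56.3 to 363.7 CPM under saline, and its log2 fold change was 1.63 ± 0.77 (SE). The amino acid and thyroid hormone carrier gene Slc7a8 (0.14 ± 0.10) and Crym (0.11 ± 0.18), which encodes a thyroid hormone-binding protein, followed. The edgeR adjusted p-values were 0.982 for Ttr and Slc7a8 and 0.983 for Crym. Of 14 prostaglandin genes 11 were tested, with 0 called in either direction, 8 above 0 and a median of 0.33. Ptges, a prostaglandin E synthase gene, was at 1.08 ± 0.32, Ptges3 at -0.25 ± 0.10, the prostaglandin D synthase gene Ptgds at 1.71 ± 0.78 and the prostacyclin synthase gene Ptgis at 0.34 ± 0.20, all with an edgeR adjusted p of 0.982.

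The next list held 9 genes of the steroid sulfatase, sulfotransferase (SULT), UGT and HSD11B families, not all of which act on steroid sulfates or glucuronides. Of these 9 genes 8 have a row and 5 were tested, with 0 called in either direction, 2 above 0 and a median of -0.07. Over all genes tested, 0 were called and 48.9% lay above 0. Sult4a1 was at -0.07 ± 0.11, Hsd11b1, the cortisone reductase gene, at -0.26 ± 0.46, the sulfotransferase gene Sult1a1 at 0.09 ± 0.18 and Ugt8a at -0.15 ± 0.55, with edgeR adjusted p-values of 0.983 to 0.992. Of 12 xenobiotic receptors and regulators 8 were tested, with 0 called in either direction, 5 above 0 and a median of 0.02. Hnf4a, a nuclear receptor gene, was at 1.42 ± 0.45 (SE), from means of 2.22 ± 0.702 and 0.819 ± 0.563 CPM (SD, n = 4 and 3). Rxra was at -0.12 ± 0.08, Arnt at 0.16 ± 0.11 and Keap1 at 0.04 ± 0.12, with edgeR adjusted p-values of 0.982 for Hnf4a, Rxra and Arnt and 0.987 for Keap1. The drug-sensing receptors Nr1i2 and Nr1i3, with 0 to 6 and 0 to 11 counts per library, were too low to be tested.

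Over the whole series, total counts ran from 14655431 to 17563493 per library, and 21260 to 24846 genes had at least 1 count. The 10 rod markers all lay below 0 in log2 fold change, with sums of 53520 to 65750 CPM under Ang II and 66850 to 71460 CPM under saline. Of them 0 were called, as over all genes tested. Lens markers, from tissue in front of the retina, summed to 2.17 to 3014 CPM under Ang II and 41.8 to 594.1 CPM under saline. Blood markers summed to 8.90 to 149.8 and 46.8 to 78.4 CPM, and microglial markers to 55.9 to 64.5 and 48.2 to 55.8 CPM. Their part in the transporter values was not tested.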

How the data were processed

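Poly-A RNA of 7 mouse retina samples, 4 Ang II and 3 saline, was sequenced from a preparation that, per the labels' protocols, marks no strand. The deposited values are whole-number read counts by gene and library, not normalized by the authors. The submitters' processing notes name CASAVA, HISAT2 2.0.5, featureCounts 1.5.0-p3 and mm10. The annotation release and the rule for reads matching several genes are not given in the sources used here. The gene length is that of the deposited file. Columns were matched by sample description, with 0 unmatched, and groups by the treatment label.

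Counts of 14655431 to 17563493 per library were tested with edgeR 4.0.16 in R 4.3.3 (filterByExpr, TMM, robust quasi-likelihood test, two-sided, Benjamini-Hochberg over all 17078 genes tested, threshold 0.05). The SE was obtained by dividing the size of the log2 fold change by the root of the F statistic. CPM uses the TMM-scaled library size, and log2 CPM a prior count of 2. DESeq2 1.42.0 and limma 3.58.1 were alternatives, with other scalings and filters, a replicate block and each library left out. No label says that libraries are separate animals, so p-values measure the spread between these libraries.

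The members and the 21 other gene lists were chosen with earlier results of these data known. Named are the 7 transporters in full, 4 genes of smallest p of each of 8 pathway lists, Pecam1, Cldn5, Rpe65, Ttr and Pdgfrb, and the 3 nearest genes of each transporter. Some genes that this rule or the lists hold are not reported here. Other genes named were chosen after their values were seen. On counts drawn for Ang II against saline, with 17040 genes tested, edgeR called 85% of 100 genes changed by a log2 fold of 1 and 100% of 100 changed by 2, and 9 of 194 calls were false. The draw gave every gene the same dispersion and placed changes only in genes above a minimum mean level. These shares therefore do not tell how many real changes would be called in these libraries, where spread differs between genes. Shared stretches of 50 bases were counted in GENCODE M21 transcripts on both strands. Cell type lists not given in the report were ciliary body and iris (276.2 to 353.4 CPM summed in Ang II, 353.3 to 408.2 in saline), choroid and melanocytes (33.4 to 45.6, 28.2 to 33.4), Müller glia (4511 to 5308, 4554 to 5408), astrocytes (36.0 to 117.3, 40.0 to 43.8), cones (697.7 to 938.0, 831.4 to 1038) and inner retinal neurons (1535 to 1819, 1707 to 1744).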

Additional observations from a re-analysis of the deposited data

Results flagged for a closer look

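Among 74 values checked in the 4 Ang II libraries, 3 had 1 library far from the other 3, where chance gives about 1 in 20. Abcb1b stood at 1.21 CPM for Ang II replicate 4 and at 2.32 to 2.49 CPM in the others. Slc16a8 stood at 67.0 CPM for Ang II replicate 3 and at 43.0 to 46.0 CPM in the others. The summed astrocyte markers stood at 117.3 CPM for Ang II replicate 3 and at 36.0 to 40.9 CPM in the others. None of the 7 transporter genes had such a library.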

How the results depend on the processing

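The count of genes called by edgeR was 0 with all 7 libraries. It stayed at 0 with RLE size factors, with library size alone, with at least 10 counts in every library and with either form of the pigment epithelium covariate, which was chosen after seeing the data. It was 98 with no filter on low counts (Slc22a8 and Slco4a1 among them), 36 with DESeq2, 114 with limma-voom and 0 to 117 with 1 library left out, the 117 without saline replicate 3. With the replicate block the count was 56, Slc22a8 among them. Same-numbered libraries did not deviate together (correlations of -0.096, -0.035 and 0.064), and 1 of the 6 libraries numbered 1 to 3, saline replicate 3, correlated best with its own number.

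Of 112 recomputed fold changes of the 7 transporters, 102 kept their sign, all of those of Slc22a8, Slco4a1, Slco1a4 and Slco1c1 among them. The 10 that turned were of Slco3a1, Slco5a1 and Slco2b1, and the cause was not tested. Slco3a1 was at 0.0224 with library size alone, 0.0559 with limma-voom, 0.38 and 0.36 with the covariate with and without Rlbp1, 0.0636 without Ang II replicate 1 and -0.14 (without saline replicate 3) to 0.19 (without saline replicate 2) over all 7 left out in turn. Slco5a1 was at 0.17 with limma-voom and ran from -0.31 (without saline replicate 1) to 0.0084 (without Ang II replicate 3), and Slco2b1 at -0.0552 and -0.0972 with the covariate with and without Rlbp1. Slco4a1 was at -0.0071 with the covariate including Rlbp1. Depth limits the low genes, with 49 counts of Slc22a8 in saline replicate 2.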
